A study of Mus musculus with 6 samples.

Results

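Adenosine and its analogues enter cells through nucleoside transporters and are then either phosphorylated or broken down. The genes described here are 10 whose RNA was measured in mouse group 2 innate lymphoid cells (ILC2s). The genes encode proteins for these steps of uptake, phosphorylation or breakdown, for adenosine formation outside the cell or for its sensing. They were taken by gene symbol from a table of 25865 genes, and all 10 were present: 3 transporters (Slc29a1, Slc29a2, Slc28a2), 2 kinases (Adk, Dck), 2 enzymes of breakdown (Ada, Pnp), 2 cell-surface enzymes that form adenosine (Entpd1, Nt5e) and 1 receptor (Adora2a). All 10 also reached a mean normalised read count of at least 1, the filter that left 16223 genes for testing.

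The study compared 3 Control samples, which received the vehicle, with 3 samples treated with toyocamycin for 16 h. Both groups were large-intestinal ILC2s, sorted from C57BL/6 mice and kept beforehand in culture for 5 days. The medium held IL-33, IL-25, IL-7 and IL-2 at 10 ng/mL apiece. No toyocamycin dose and no length of vehicle exposure are stated. Whether replicates came from separate cultures or animals is not stated either, so a p-value here reflects sample-to-sample spread that may be only technical.

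Toyocamycin is itself an adenosine analogue with a modified base, and adenosine kinase is known to phosphorylate it. In the cell, adenosine has 2 main fates: adenosine kinase turns it into AMP, and adenosine deaminase turns it into inosine, which purine nucleoside phosphorylase then splits. Outside the cell, adenosine comes from released ATP by way of the ectoenzymes CD39 (gene Entpd1) and CD73 (gene Nt5e) and acts on receptors that change cyclic AMP. Adenosine is known to restrain the activation of many lymphocytes.

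Each library held between 22303455 and 36742639 reads assigned to genes (25461442 to 27003686 in Control). Values below are normalised read counts, that is, reads divided by 1 scaling factor per sample and not by gene length, and 3 reads in a library correspond on average to 2.66 in Control and 3.38 in toyocamycin. All 12 ILC2 markers checked were detected, with Control means from 134 ± 13.4 (Thy1) to 104886 ± 2034 (Il1rl1) (SD, n = 3). Gata3 was at 32470 ± 676 and Il17rb at 400 ± 12.4 in Control. After toyocamycin these markers moved in both directions, from a 13.1-fold rise of Rora to a 6.95-fold fall of Il13. Summed levels of T cell, B cell, NK cell and ILC3 markers stayed between 0 and 271 in every sample, against 358134 to 438269 for the ILC2 list. Of 4 mast cell markers, Fcer1a was at 0 and Mcpt1 and Cpa3 were at most 6.80 on average, while Kit stood at 29819 ± 803 in Control. Macrophage and dendritic cell markers summed to 387 to 872 (mostly Lyz2) and epithelial markers to 160 to 217 over the 6 samples. In bulk RNA, fewer cells of a type and less RNA per cell cannot be told apart.

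After toyocamycin, transcripts of both kinases and of 2 of the 3 transporters fell, and those of the receptor gene Adora2a rose. Adk fell 4.90-fold, Dck 2.98-fold, Slc29a1 2.60-fold and Slc28a2 3.17-fold. The enzymes of breakdown and of extracellular formation moved less: Ada fell 1.37-fold, Entpd1 fell 1.54-fold, Nt5e rose 1.29-fold, and Pnp did not pass the test. At an adjusted p under 0.05 (limma, Benjamini-Hochberg over all genes tested), 6 of the 10 genes were lower and 2 higher. Toyocamycin moved much of the transcriptome, so these counts have a high background: 65.9% of all genes tested were called, 33.1% lower and 32.8% higher. A call with a fall of at least 2-fold was made for 4 of the 10 genes (Adk, Dck, Slc29a1, Slc28a2) and for 20.5% of all genes. The median log2 change was −0.79 over the 10 genes and −0.03 over all genes tested. With the deposited scaling, the normalised total of every toyocamycin sample was above that of every Control sample. The scaling factors were 1.10, 1.14 and 1.14 in Control and 0.757, 1.18 and 0.824 in toyocamycin. Setting the samples to equal totals removed this difference and lowered the log2 changes together, by less at low counts. This shift is shared, so an equal-totals value is not a separate check of each gene. With equal totals, the median of all genes moved to −0.35, and the share of calls that were higher went from 49.7% to 36.9%. Of the 10 genes, 8 were then lower and 1 higher.

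**Figure D1:**
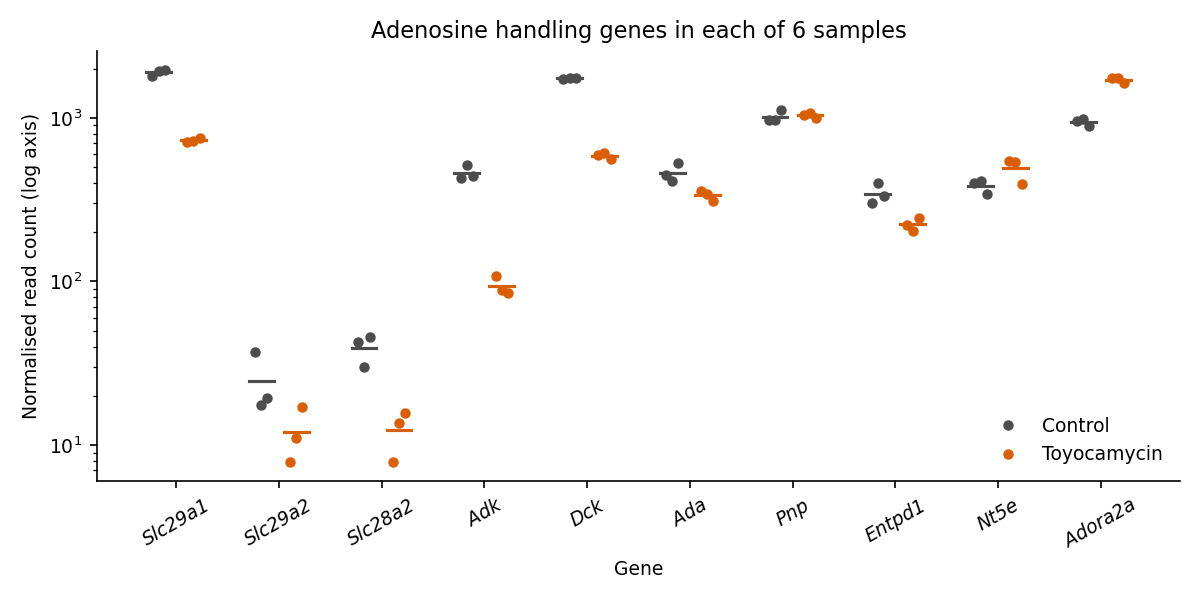
Normalised read counts (log axis) of the 10 adenosine handling genes in each of 3 Control and 3 toyocamycin samples, with points for samples and horizontal lines for group means. The groups are apart in 8 genes and overlap in Pnp and Nt5e, and the widest gap is that of Adk (85.0 to 108 against 431 to 512).

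The plot of values by sample shows groups that did not overlap in 8 of the 10 genes, all but Pnp and Nt5e. Such a separation was present in 69.1% of all genes tested.

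The transporters come first in the path. Slc29a1 encodes the main equilibrative nucleoside transporter of the plasma membrane, which carries adenosine in either direction along its gradient. The gene lies on chromosome 17 (45585200 to 45599606, minus strand, mm10, GENCODE M21), and its longest coding transcript has 12 exons. It was measured at 1810, 1933 and 1950 in Control and at 716, 725 and 748 after toyocamycin. Every toyocamycin sample lay well below every Control sample, and the replicates of each group were close together. The log2 change was −1.38 (SE 0.069, adjusted p = 1.28e-13, limma), and it ran from −1.73 to −1.36 over all alternatives. Of the 50-base windows of its longest transcript, 8.21% also occur in Gm17080, annotated on the opposite strand, and the strand setting of the counting is not stated.

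Slc29a2 (chromosome 19, 5023860 to 5031972, plus strand) encodes a second equilibrative transporter, which also carries nucleobases. Its values were 37.1, 17.6 and 19.3 in Control and 7.92, 11.0 and 17.0 after toyocamycin, which are 6 to 41 reads a library. The groups were separated by less than 1 normalised read, and Control replicate 1 stood above the other 2. The log2 change of −0.97 (SE 0.49) did not pass (adjusted p = 0.0893, limma, range 0.0281 to 0.324 over the alternatives). It passed with equal totals (−1.29) and without toyocamycin replicate 3 (−1.23).

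Because both transporters handle the same substrates, their ratio was taken within each sample. The scaling of the samples cancels there, except through the 1 added to each value before the log2. Reads of Slc29a1 outnumbered those of Slc29a2 86.6 ± 33.1 times in Control and 66.7 ± 23.2 times after toyocamycin (SD, n = 3). The difference was within the spread between replicates (log2 change of the ratio −0.41, two-sided exact permutation p = 0.4, or 0.4 after adjustment over the 2 ratios tested). The log2 change of the ratio was −0.43 with equal totals, and −0.38 or −0.59 with 0.5 or 5 added in place of 1. The coding sequences of the 2 genes are 61.7% identical over the aligned bases, and they share no run of 50 bases.

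Slc28a2 (chromosome 2, 122426477 to 122461137, plus strand) encodes a sodium-driven concentrative transporter that prefers purine nucleosides. Its values were 42.6, 29.8 and 45.6 in Control and 7.92, 13.6 and 15.8 after toyocamycin, or 34 to 52 against 6 to 16 reads. All 3 toyocamycin samples were below all Control samples. The log2 change was −1.62 (SE 0.43, adjusted p = 0.00239, limma). This low count is uncertain because 39.8% of the 50-base windows of its transcript also occur in the neighbouring Gm14085, which RefSeq calls Slc28a2b. Slc28a2b was listed at 0 in all 6 samples, and whether the counting kept reads with more than 1 match is not stated.

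Of the kinases, Adk had the largest change of the 10 genes on the log2 scale. Adenosine kinase adds a phosphate to adenosine and to many of its analogues, and the gene spans chromosome 14 from 21052574 to 21448569 (plus strand, 11 exons in the longest coding transcript). Adk was measured at 431, 512 and 440 in Control and at 108, 88.9 and 85.0 after toyocamycin. The lowest Control sample was still several times the highest toyocamycin sample. The log2 change was −2.28 (SE 0.15, adjusted p = 1.88e-11, limma), and −2.63 with equal totals or −1.83 with quantile normalization. No 50-base window of its longest transcript occurs in a transcript of another gene.

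Dck encodes deoxycytidine kinase, which phosphorylates deoxycytidine, deoxyadenosine and deoxyguanosine and many nucleoside drugs. It lies on chromosome 5 (88764996 to 88783281, plus strand). Its Control values were 1738, 1750 and 1758, the tightest of the 10 genes relative to their mean, and its toyocamycin values were 594, 607 and 557. The groups were far apart, with a log2 change of −1.58 (SE 0.072, adjusted p = 2.87e-14, limma). Its direction and call held under all 14 alternatives, as did those of Adk, Slc29a1, Slc28a2 and Adora2a.

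RefSeq (GRCm38.p6) gives Adk 2 start sites, which are known to yield proteins with different amino ends, and counts per gene do not separate their transcripts. Stretches of 250 bases before a start of Adk, Dck and Slc29a1 are shown, since these are the 3 genes with called falls of at least 2-fold that did not rest on low counts. For Adk the proximal start was taken, because the window of the distal start overlaps exons of the divergent gene Ap3m1, and for Slc29a1 the outermost of 8 starts. Capitals mark matches on either strand to these motifs: the CCAAT box, the GC box with letters GGGCGG, the TATA box with letters TATAAA, the E-box with letters CACGTG, the cyclic AMP response element with letters TGACGTCA and the E2F site with letters TTTGGCGC or else TTTCCCGC. Sequences read 5′ to 3′ in the direction of transcription.
Adk proximal start, chr14:21075902-21076151, plus strand: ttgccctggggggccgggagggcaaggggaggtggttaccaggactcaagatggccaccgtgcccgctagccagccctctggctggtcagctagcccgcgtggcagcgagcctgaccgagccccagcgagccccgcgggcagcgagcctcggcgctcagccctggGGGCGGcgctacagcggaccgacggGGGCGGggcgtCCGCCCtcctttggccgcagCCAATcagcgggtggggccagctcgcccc
Dck, chr5:88764763-88765012, plus strand: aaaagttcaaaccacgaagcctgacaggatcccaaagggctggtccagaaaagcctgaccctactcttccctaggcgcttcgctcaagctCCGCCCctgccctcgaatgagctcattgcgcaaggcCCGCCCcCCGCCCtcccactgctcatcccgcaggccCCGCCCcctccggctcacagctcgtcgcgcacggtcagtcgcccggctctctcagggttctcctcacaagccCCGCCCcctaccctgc
Slc29a1, chr17:45599619-45599868, minus strand: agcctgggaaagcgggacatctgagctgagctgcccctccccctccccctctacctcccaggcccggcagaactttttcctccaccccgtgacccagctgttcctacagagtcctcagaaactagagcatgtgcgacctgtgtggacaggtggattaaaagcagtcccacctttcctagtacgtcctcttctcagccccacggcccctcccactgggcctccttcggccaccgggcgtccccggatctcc

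The proximal Adk window holds 1 CCAAT box and 3 GC boxes. The distal Adk window holds 2 of each, of which 1 pair overlaps. The Dck window holds 5 GC boxes and no CCAAT box, and the outermost Slc29a1 window holds no match. Among its other 7 starts, start 5 from the outermost holds 5 GC boxes, starts 4, 6 and 7 hold 1 each, start 2 holds a CCAAT box and start 6 an E-box. RefSeq windows were found for 9 of the 10 genes, 18 windows in all, of which 8 belong to Slc29a1. A GC box was present in 10 of these 18 and a CCAAT box in 8, against 32.7% and 33.9% of 32851 mouse promoter windows of the same length. By gene, each was present in 6 of 9, a count that these shares of windows do not match. GC content ran from 45.2% to 75.2% in the 18 windows, against a median of 52.4% over all, and its part in these counts was not tested. The E-box of Slc29a1 was the only one in the 18 (6.02% of all windows). No TATA box (12.4%), cyclic AMP response element (1.55%) or E2F site (0.417% and 0.895%) was among the letters of the 18 windows. These matches describe letters and do not show that a factor binds.

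Ada encodes adenosine deaminase, whose inherited loss causes severe combined immunodeficiency. The gene is on chromosome 2 (163726584 to 163750239, minus strand). Its values were 447, 411 and 527 in Control and 357, 340 and 310 after toyocamycin. The toyocamycin samples were all below the Control samples, by a smaller margin than for the kinases. The log2 change was −0.45 (SE 0.12, adjusted p = 0.00174, limma), and the call ended with quantile normalization (−0.12, adjusted p = 0.37, range 1.04e-05 to 0.37).

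Adenosine kinase and adenosine deaminase compete for the same substrate, so the balance of their transcripts was compared within samples. Adk reads per Ada read were 0.966, 1.25 and 0.835 in Control and 0.304, 0.261 and 0.275 after toyocamycin. The ratio was about even in Control and low in every toyocamycin sample. Its mean was 1.02 ± 0.21 in Control and 0.280 ± 0.022 after toyocamycin (SD, n = 3), a log2 change of −1.83, in groups that did not overlap. The two-sided exact permutation p was 0.1, the smallest that 3 against 3 samples can give, or 0.2 after adjustment over the 2 ratios, so this test cannot pass the threshold.

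Pnp encodes purine nucleoside phosphorylase, which splits inosine and guanosine and is likewise needed by T cells. It lies on chromosome 14 (50931082 to 50965237, plus strand), and its annotated span contains the near-identical gene Pnp2 (50955992 to 50964749). Its values were 966, 971 and 1109 in Control and 1042, 1069 and 1003 after toyocamycin. The groups overlapped, and the log2 change of 0.03 (SE 0.076, adjusted p = 0.719, limma) did not pass. Its direction depended on the scaling: with equal totals it was called lower (−0.31, adjusted p = 0.000673, range 0.000673 to 0.998).

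The values of both phosphorylase genes are uncertain because their coding sequences are 98.2% identical, with 851 of 867 aligned bases the same. A stretch of 90 coding bases shows how little separates them, and none of the other stretches compared, in steps of 30 bases, had more differences. It starts at coding base 694 of Pnp and 739 of Pnp2 in GENCODE M21, and capitals mark the 3 bases that differ.
Pnp: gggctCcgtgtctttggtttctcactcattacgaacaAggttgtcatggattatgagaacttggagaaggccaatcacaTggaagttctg
Pnp2: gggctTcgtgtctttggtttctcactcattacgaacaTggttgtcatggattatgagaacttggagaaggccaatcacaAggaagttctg

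In all, 28.7% of the 50-base windows of the longest Pnp transcript occur in transcripts of Pnp2, of Gm49342, whose exons overlap both genes on the same strand, or of Gm38316 on the opposite strand. The table listed Pnp2 at 34.6 ± 9.32 in Control and 17.0 ± 5.00 after toyocamycin (SD, n = 3; log2 change −0.99, adjusted p = 0.0442, limma), and this call ended with quantile normalization (−0.71), with no filter, with DESeq2 and without any 1 sample other than Control replicate 2 or toyocamycin replicate 3 (adjusted p = 0.0617 to 0.171).

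Extracellular adenosine is formed by a pair of enzymes in sequence, and their genes were called in opposite directions with the deposited scaling. Neither call held under all 14 alternatives. Entpd1 encodes CD39, which strips phosphates from ATP and ADP, and lies on chromosome 19 (40612366 to 40741602, plus strand). It was measured at 300, 397 and 334 in Control and at 222, 203 and 244 after toyocamycin. The groups did not overlap, and the log2 change was −0.62 (SE 0.14, adjusted p = 0.000474, limma). Quantile normalization ended the call (−0.17, adjusted p = 0.31, range 1.2e-05 to 0.31).

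Nt5e encodes CD73, which turns AMP into adenosine, and lies on chromosome 9 (88327197 to 88372092, plus strand). Its values were 398, 408 and 341 in Control and 544, 536 and 393 after toyocamycin. Toyocamycin replicate 3 fell within the Control range, while the other 2 lay above it. The log2 change was 0.35 (SE 0.13, adjusted p = 0.0185, limma, range 0.000314 to 0.989). It was 0.50 without toyocamycin replicate 3, and 0.0021 with equal totals, which ended the call. Leaving out 1 sample also ended it for Control replicate 1 (0.38) or 3 (0.27) and for toyocamycin replicate 1 (0.27) or 2 (0.28).

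Both ectoenzymes are also made by endothelial and stromal cells. All 5 markers of fibroblasts and endothelial cells were detected, with a summed level of 1144 to 1361 in Control and 659 to 867 after toyocamycin. Most of it was Pecam1, which fell from 1012 ± 39.7 to 565 ± 40.5 (log2 change −0.84, adjusted p = 1.12e-08, limma). The other markers were not called: Cdh5 was at 74.3 ± 10.3 and 74.2 ± 39.4, and Pdgfra at 78.2 ± 25.4 and 74.9 ± 6.24. Col1a1 was at 43.4 ± 20.5 and 38.9 ± 12.9, and Col3a1 at 35.5 ± 24.9 and 31.2 ± 18.8. The part of these markers in the values of Entpd1 and Nt5e was not tested.

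Adora2a encodes the adenosine receptor that raises cyclic AMP in lymphocytes and dampens their activation. It lies on chromosome 10 (75316877 to 75334784, plus strand). Its values were 960, 983 and 895 in Control and 1743, 1739 and 1640 after toyocamycin. All toyocamycin samples were above all Control samples, at 1.81 times their mean. The log2 change was 0.85 (SE 0.068, adjusted p = 3.79e-10, limma), and it was 0.50 with equal totals and 0.76 with quantile normalization. Of the 10 genes it was the one that was called higher under every alternative.

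**Figure D2:**
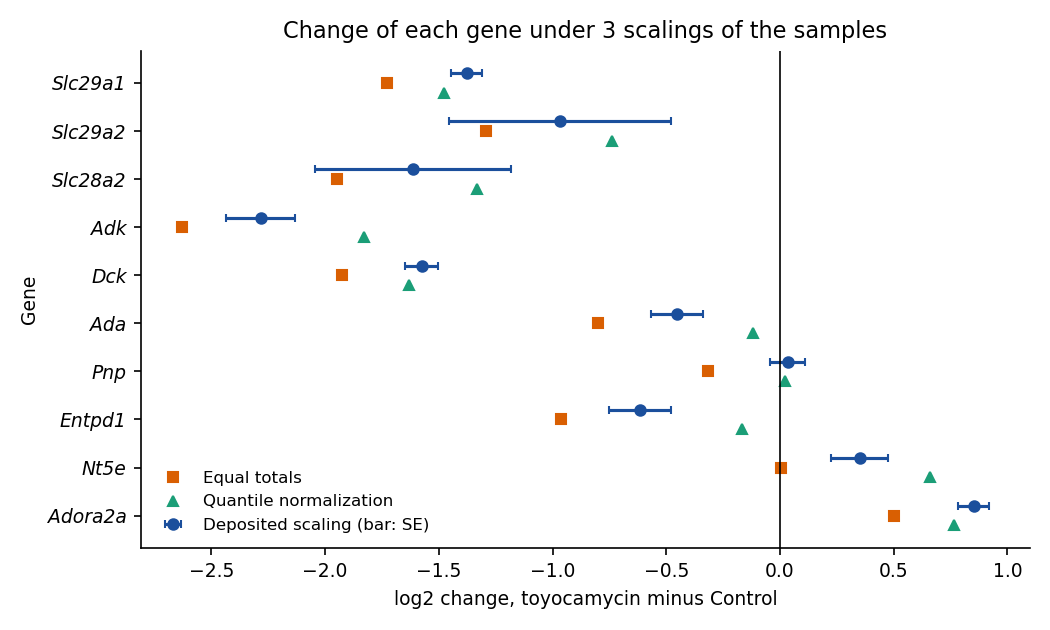
log2 change (toyocamycin minus Control) of the 10 genes under 3 scalings of the samples: circles with SE bars for the deposited scaling, squares for equal totals and triangles for quantile normalization. Adk, Dck, Slc29a1, Slc29a2, Slc28a2, Ada and Entpd1 stay on the left and Adora2a on the right in all 3. Pnp changes side and Nt5e reaches 0.0021 with equal totals.

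Levels can be compared between genes only per length, so the normalised reads were also divided by the length of each gene's longest coding transcript. On this scale Slc29a1 was the highest of the 10 genes in Control, at 856 ± 34.5 normalised reads per kb (SD, n = 3), followed by Dck at 568 ± 3.29. Adora2a (364 ± 17.5) and Pnp (345 ± 27.7) came next and overlapped, as did Ada (273 ± 35.1) and Adk (254 ± 24.3). Nt5e (95.7 ± 9.11) and Entpd1 (81.4 ± 11.6) overlapped too. The lowest levels were those of Slc28a2 (10.1 ± 2.14) and Slc29a2 (9.42 ± 4.14), which also overlapped.

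The order was different after toyocamycin. Adora2a was first at 658 ± 22.4 normalised reads per kb, then Pnp at 353 ± 11.3 and Slc29a1 at 329 ± 7.48. Ada (199 ± 14.1) and Dck (190 ± 8.41) overlapped, as did Entpd1 (52.8 ± 4.84) and Adk (51.7 ± 6.86), with Nt5e (123 ± 21.2) between these pairs. Slc29a2 (4.57 ± 1.76) and Slc28a2 (3.18 ± 1.04) stayed last and overlapped. Adk went from rank 6 to rank 8 and Dck from rank 2 to rank 5.

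**Figure D3:**
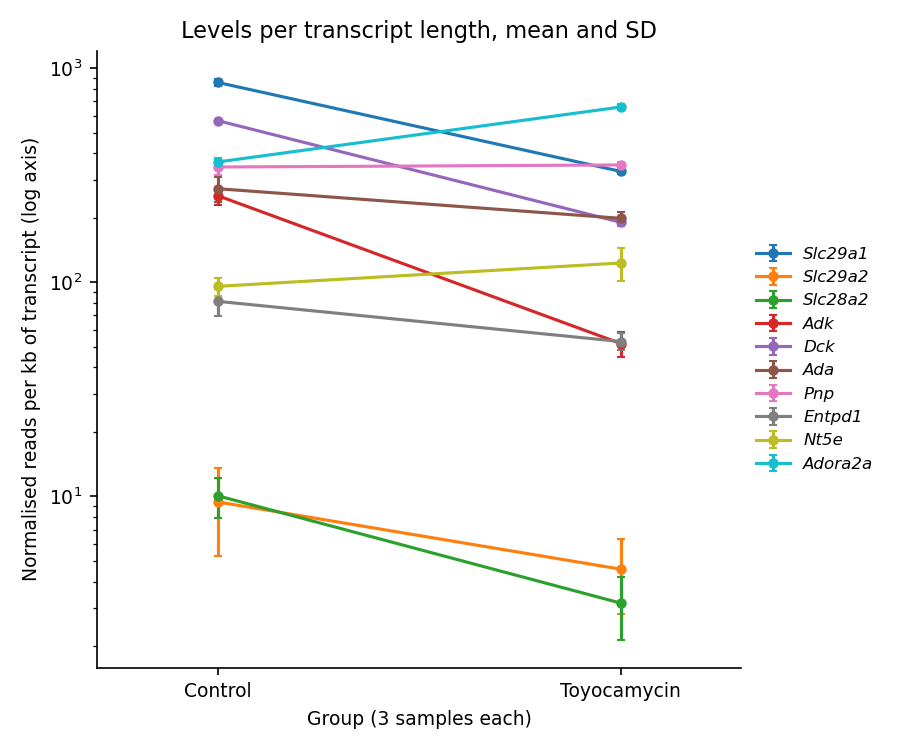
Normalised reads per kb of the longest coding transcript (log axis) of the 10 genes in Control and toyocamycin, as means with SD bars over 3 samples. Slc29a1 (856) and Dck (568) lead in Control and Adora2a (658) leads after toyocamycin, and Adk drops from 254 to 51.7.

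The 3 genes whose profile over the 6 samples was nearest to that of Adk were Adgrl1, an adhesion G protein-coupled receptor gene, Slc4a8, a bicarbonate transporter gene, and Hps1, a gene of lysosome-related organelle formation. Nearness is the root mean square difference between log2 values centred on the Control mean, among 9906 genes with a mean of at least 100. It was 0.05 for Adgrl1, 0.07 for Slc4a8 and 0.08 for Hps1. Their log2 changes of −2.32, −2.22 and −2.31 were close to the −2.28 of Adk, which is what the measure selects for.

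The wider set of nucleoside handling genes moved in both directions. Of 72 further genes listed by role, 71 were in the table and 63 passed the filter. Of these 63, 31 were lower, 18 higher and 14 did not pass, with a median log2 change of −0.28. Over all genes tested, 33.1% were lower and 32.8% higher, with a median of −0.03, and the counts of the single roles below have the same background. With equal totals 36 of the 63 were lower and 10 higher. Of the 49 calls, 34 held under all alternatives and 15 ended under at least 1. For each role the 2 genes with the highest mean normalised read count are given, and genes named only to spell out a count of 5 or fewer were named after their values were seen.

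**Figure D4:**
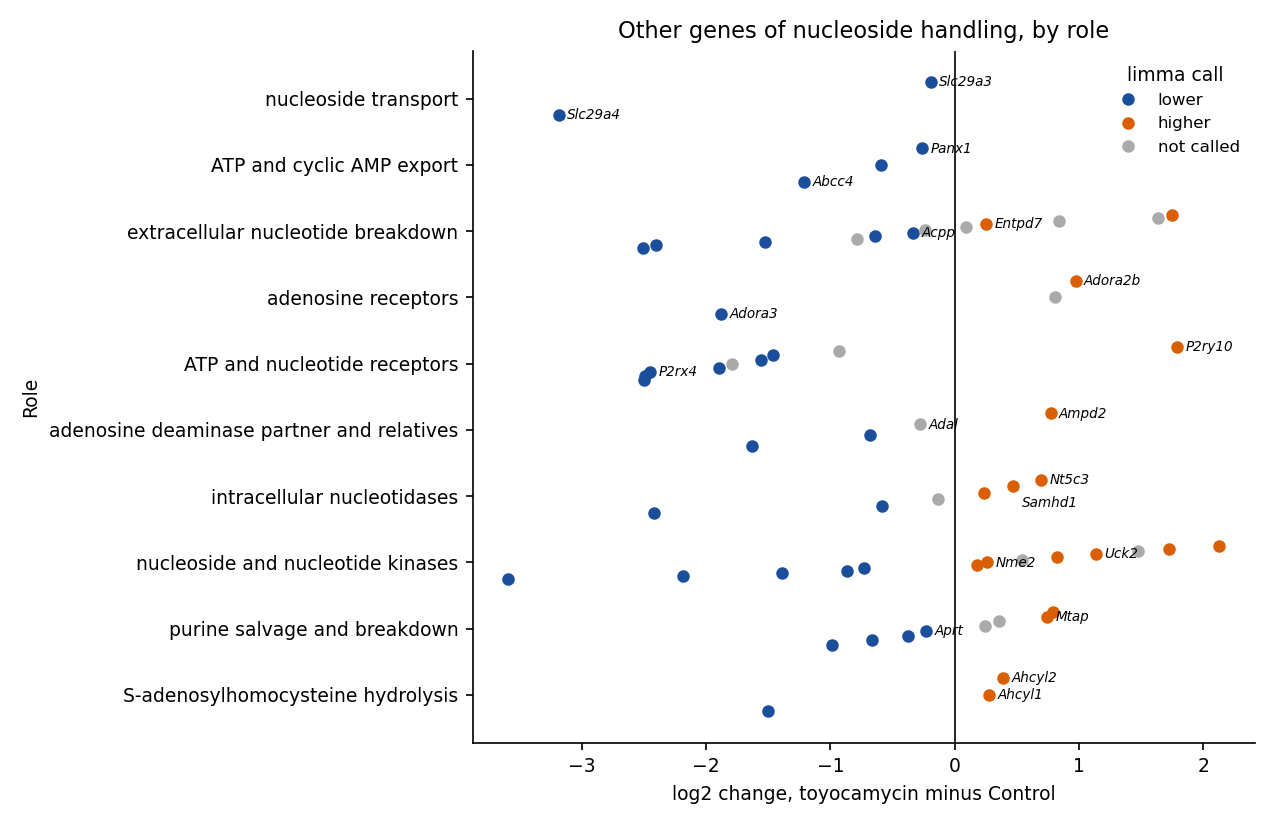
log2 change (toyocamycin minus Control) of the 63 further nucleoside handling genes that passed the filter, 1 row per role, coloured by the limma call, with names on the 2 genes of highest mean normalised read count in each role. Nucleotide receptors lie mostly left of 0 (6 lower, 1 higher), while kinases lie on both sides (5 lower, 6 higher, and 6 lower, 4 higher with equal totals).

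Among the other transporters, the endosomal and lysosomal transporter gene Slc29a3 fell from 819 to 718 on average (log2 change −0.19, adjusted p = 0.0373, limma), a call that ended with quantile normalization (−0.08), with DESeq2 and without any 1 sample other than toyocamycin replicate 2 (adjusted p = 0.0509 to 0.0918). Slc29a4, which carries monoamines and adenosine, fell 8.43-fold from 81.7 ± 13.5 to 9.69 ± 6.25 (log2 change −3.19, adjusted p = 5.55e-06). The exporters of ATP and cyclic AMP fell in 3 of 3 genes. Abcc4 fell 2.32-fold from 1424 ± 65.8 to 615 ± 24.9, the channel gene Panx1 had a log2 change of −0.26 and Abcc5 of −0.59.

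Of 12 nucleotide breakdown genes listed, acting inside or outside the cell, 5 were lower (Acpp, Entpd3, Entpd4, Entpd5 and Entpd6). Entpd3 had at most 12 reads a library and Entpd4 at most 22. The 2 that were higher were Entpd7 and Bst1 (1 to 14 reads a library), and neither was called with equal totals. Bst1 was also not called without any 1 sample other than Control replicate 1, and Entpd3 was not called without Control replicate 1 (−1.82, adjusted p = 0.096, limma). Acpp, a phosphatase that can also turn AMP into adenosine, fell 1.26-fold from 836 ± 59.1 to 663 ± 57.1. Entpd7 was at 556 ± 34.1 and 663 ± 5.71, with a log2 change of 0.26 that became −0.09 with equal totals and was not called without Control replicate 3 (0.21). Of the other adenosine receptors, Adora2b rose from 26.8 ± 5.93 to 53.0 ± 4.10 (log2 change 0.97, adjusted p = 0.0154, limma), a call lost with equal totals (0.63) and also when Control replicate 1 was left out (0.84). Adora3 was at 7.39 ± 3.95 and 1.37 ± 1.25, the second below 3 reads a library. Its call as lower (adjusted p = 0.0336, limma) ended with edgeR, with DESeq2 and without Control replicate 1, Control replicate 2 or toyocamycin replicate 1 (adjusted p = 0.0677 to 0.153). Adora1 did not pass. Per kb of transcript, Adora2a at 364 in Control stood far above Adora2b at 14.6, Adora3 at 3.12 and Adora1 at 0.12 normalised reads.

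Receptors for ATP and other nucleotides fell in 6 of 9 genes and rose in 1, where 33.1% and 32.8% of all genes tested did. Among the 6, P2ry6 had 4 to 6 reads a library in Control and 0 after toyocamycin, and P2rx7 had 24 to 45 and 3 to 12. The ATP-gated channel gene P2rx4 fell 5.47-fold, from 1721 ± 58.4 to 315 ± 29.3 (log2 change −2.45, adjusted p = 4.94e-16, limma). The gene that rose, P2ry10, belongs to this family by sequence and is known as a lysophospholipid receptor. It went from 5496 ± 80.2 to 19033 ± 487 (log2 change 1.79).

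Inside the cell, the AMP deaminase gene Ampd2 rose from 1739 ± 48.1 to 2977 ± 174 (log2 change 0.77), whereas Ampd3 fell (−0.68). The Ampd3 call ended with quantile normalization (−0.14) and without Control replicate 1 (−0.61) or toyocamycin replicate 1 (−0.40). Dpp4, whose protein CD26 holds adenosine deaminase at the surface in humans, fell 3.10-fold from 268 ± 15.3 to 86.4 ± 12.1. Adal, a relative of adenosine deaminase that acts on methylated AMP, had a log2 change of −0.28 and did not pass (adjusted p = 0.0873, limma). Of 6 nucleotidase genes, Nt5c3 (0.69), Samhd1 (0.47) and Nt5c (0.24) were higher and Nt5c3b (−2.42) and Nt5m (−0.58) lower on the log2 scale. With equal totals Nt5c was at −0.11 and not called, and with quantile normalization Samhd1 (0.08) and Nt5m (−0.04) were not called.

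Of the 13 other nucleoside and nucleotide kinases tested, 6 were higher and 5 lower, against 32.8% and 33.1% of all genes. With equal totals 4 were higher and 6 lower, since Nme2 lost its call and Ak3 went from higher (0.18) to lower (−0.17, adjusted p = 0.0402, limma). Uck2, a uridine-cytidine kinase gene, rose from 1816 ± 24.9 to 4005 ± 227 (log2 change 1.14, adjusted p = 1.82e-13, limma). The nucleoside diphosphate kinase gene Nme2 had a log2 change of 0.26, which became −0.09 with equal totals and was called lower (−0.17) with quantile normalization. The 6 that rose had log2 changes from 0.18 (Ak3) to 2.13 (Uck1, from 749 ± 47.5 to 3280 ± 144). The 5 that fell were Tk1, Tk2, Dguok, Uckl1 and Nme1, with log2 changes from −3.59 to −0.73. Dguok, the mitochondrial kinase for purine deoxynucleosides, fell 2.64-fold from 317 ± 31.8 to 120 ± 10.8.

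In purine salvage, Mtap, which recovers adenine from methylthioadenosine, rose from 1128 ± 32.1 to 1891 ± 92.9 (log2 change 0.74). Aprt, which returns that adenine to AMP, fell 1.17-fold from 2323 ± 87.1 to 1981 ± 112 (log2 change −0.23). Prps1 was also higher (0.79), and Hprt (−0.38), Prps2 (−0.67) and Pnp2 were lower. S-adenosylhomocysteine hydrolase, encoded by Ahcy, releases adenosine from methylation reactions. Ahcy fell 2.84-fold from 1993 ± 85.7 to 702.5 ± 4.85 (log2 change −1.50, adjusted p = 2.79e-14, limma). Its relatives Ahcyl1 (0.28) and Ahcyl2 (0.39) were higher with the deposited scaling, and neither was called with equal totals (−0.07 and 0.04).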

How the data were processed

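RNA sequencing covered 6 mouse ILC2 samples, 3 Control and 3 toyocamycin. Cutadapt 4.7, FastQC and the build mm10 are named in the submitters' processing notes, without order or role; their aligner, counter, strand setting and annotation were not given in sources used here. Although named for FPKM, the deposited values are a normalised signal made by the authors: 100% of the values in each sample are whole reads (tolerance 0.01 reads) divided by 1 factor per sample.

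On the log2(value + 1) scale, genes whose mean normalised count reached 1 were tested with limma 3.58.1 (R 4.3.3), a mean-variance trend, two-sided tests and Benjamini-Hochberg adjustment over 16223 genes. The pseudocount makes log2 changes understate those of low genes. Folds are ratios of group means. Counting the recovered reads, edgeR 4.0.16 called 10687 genes and DESeq2 1.42.0 called 10212 of the 16223, against 10690 with limma. The design named limma because FPKM was assumed, and it was kept as the values are not raw counts. The limma, edgeR and DESeq2 steps were tested on simulated data in which few genes changed, equally up and down. A shift of much of the transcriptome, and its effect on scaling, was not simulated.

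No replicate pair was alike within sampling noise (chi-square divided by its degrees of freedom 3.87 to 7.39), and all samples were kept. The 10 genes and the lists were chosen with earlier results of these data known. The naming rule took all 10 genes, the 2 genes of each role in the wider list with the highest mean normalised count (not per length), Pnp2, and the 3 genes nearest to Adk. Other genes of the wider list were named after their values were seen, mainly to spell out small counts. Positions and transcripts are from GENCODE M21 and promoters from RefSeq GRCm38.p6. Filter, pseudocount, scaling, tool, replicate block and each sample were varied in turn.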

Additional observations from a re-analysis of the deposited data

How the results depend on the processing

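Directions and calls of 5 genes (Adk, Dck, Slc29a1, Slc28a2, Adora2a) were the same under all 14 alternatives. With equal totals, 1 of the 10 genes was higher in place of 2, and 10 genes of the wider list in place of 18. With 1 sample left out, 1 to 2 of the 10 genes were higher. The log2 change of Pnp, 0.03, was −0.31 with equal totals, a setting that also moved the median of all genes tested from −0.03 to −0.35. For Pnp it was −0.0202 with edgeR on recovered reads and −0.0002 without Control replicate 1. With 1 sample left out it ranged from −0.0002 to 0.10. Why the edgeR and leave-out values of Pnp changed sign was not tested. No pairing by replicate number was seen: deviations from the group means correlated at −0.008, 0.023 and −0.041 for numbers 1, 2 and 3. Unlike numbers gave −0.086 to 0.081. These correlations took in genes with few reads, where counting noise is large, so pairing could have been missed. With the replicate block, 8 of the 10 genes were called (2 higher, 6 lower), 47 of the wider list in place of 49 (Slc29a3 and Pnp2 lost their calls), and 10570 of all genes. The 3 samples per group and, for Slc29a2 and Slc28a2, 6 to 52 reads a library limit the precision.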
